A study of Rattus norvegicus with 36 samples.

Results

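The genes described here carry, activate or answer to thyroid hormone in rat liver. They are the 8 genes Thrsp, Dio1, Serpina7, Ttr, Slc16a10, Thrb, Thra and Gpd2 (of 14217 named genes on the array), read by the 16 probe sets (of 31042 tested) whose platform annotation names only 1 of these symbols. A further probe set that the annotation gives to Ttr together with 2 metallothionein genes was left out. Livers came from male Harlan Sprague Dawley rats that were 7 weeks old at the start. They were gavaged on 5 consecutive days at 5 ml/kg with corn oil alone (vehicle) or with decabromodiphenyl oxide (decaBDE) in the oil, a brominated flame retardant suspected of disturbing the thyroid. The lowest dose was 0.1 mg/kg, followed by 0.959 mg/kg, 9.59 mg/kg, 95.9 mg/kg and, at the top, 959 mg/kg. All groups thus shared the gavage and the oil, and tissue of the left lobe was collected at necropsy, 1 day after dosing ended. Each of the 6 groups had 6 arrays, 36 in all, which limits the precision, and the labels do not say that each array was a separate rat, so p-values measure the spread between arrays. Replicate 6 of 0.1 mg/kg stood apart, with the lowest estimated array weight of the 36 (0.517). Values without it are given beside several of the results it moved. Circulating hormone was not analysed here.

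Thyroid hormone leaves the gland mostly as thyroxine and travels bound to plasma proteins that the liver makes. Inside hepatocytes the type 1 deiodinase converts it to the active triiodothyronine, which binds nuclear receptors and switches genes of lipid synthesis and mitochondrial metabolism on or off. The liver also clears the hormone by deiodination, sulfation and glucuronidation. Rat liver Thrsp and Gpd2 are classic readouts of thyroid status because both rise with the hormone.

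None of the 16 probe sets differed from vehicle at any dose after adjustment over all probe sets (limma, Benjamini-Hochberg threshold 0.05). From the lowest to the highest dose the counts were 0 of 16 each, beside 0%, 0.029%, 0.116%, 0.0902% and 0.11% of all probe sets in either direction. The smallest adjusted p among the 16 at 959 mg/kg was 0.683. Before adjustment, p was under 0.05 for 1 probe set at 0.1 mg/kg, for 0 at 0.959, 9.59 and 95.9 mg/kg, and for 3 at 959 mg/kg. Over all probe sets those shares were 3.79%, 6.06%, 8.61%, 7.01% and 6.08%. The 1 at 0.1 mg/kg was the Thra probe set 1380518_s_at, which had a higher mean than vehicle and lies at the bottom of the scale. The 3 at 959 mg/kg were Serpina7 and both probe sets of Gpd2, all with lower means than vehicle. At no dose did a member probe set have all 6 arrays above, or all 6 below, the vehicle range (0 of 16 at each dose), beside 0.142%, 0.409%, 0.606%, 0.567% and 0.445% of all probe sets from the lowest to the highest dose. With so few calls anywhere on the array, a count of 0 among 16 does not set these genes apart from the rest.

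The same held for the comparisons over several doses. The mean of the 5 dose groups minus vehicle gave 0 calls among the 16, beside 0.0805% of all probe sets, and a test for any dose gave 0 beside 0.135%. A straight line over dose rank (0 for vehicle to 5 for 959 mg/kg) gave 0 beside 0.393%. Before adjustment the line had p under 0.05 for 4 of the 16, both Gpd2 probe sets, Serpina7 and Slc16a10, and so did 8.71% of all probe sets. The test for any dose had p under 0.05 for 4 of 16, namely Slc16a10, 1 probe set of Gpd2 and 2 of Thra, and for 7.53% of all probe sets. At 959 mg/kg the median log2 difference of the 16 was 0.0457, beside -0.00105 over all probe sets, and 10 of the 16 were positive. At 9.59 mg/kg it was -0.062, beside 0.000164, and 5 of the 16 were positive. At the other doses the median lay between 0.00925 and 0.0477. Several genes count more than once among the 16, so these medians and counts are not over separate genes.

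Promoter windows of 3 genes are shown because these genes had the smallest unadjusted p of the dose line. Each runs from 250 bases before the annotated start of transcription to 50 bases after it (RefSeq, build GRCr8), and capitals mark AGGTCA, the core half-site of nuclear receptors of this family. Slc16a10 is at chr20:45122309-45122608 (minus strand), Gpd2 at chr3:62211403-62211702 (plus strand) and Serpina7 at chrX:107457632-107457931 (minus strand).
Slc16a10: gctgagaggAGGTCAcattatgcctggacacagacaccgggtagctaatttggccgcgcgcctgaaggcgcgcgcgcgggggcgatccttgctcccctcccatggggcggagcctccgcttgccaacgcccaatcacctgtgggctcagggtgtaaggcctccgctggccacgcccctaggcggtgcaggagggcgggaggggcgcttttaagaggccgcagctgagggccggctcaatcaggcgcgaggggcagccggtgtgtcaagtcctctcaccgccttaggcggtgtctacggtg
Gpd2: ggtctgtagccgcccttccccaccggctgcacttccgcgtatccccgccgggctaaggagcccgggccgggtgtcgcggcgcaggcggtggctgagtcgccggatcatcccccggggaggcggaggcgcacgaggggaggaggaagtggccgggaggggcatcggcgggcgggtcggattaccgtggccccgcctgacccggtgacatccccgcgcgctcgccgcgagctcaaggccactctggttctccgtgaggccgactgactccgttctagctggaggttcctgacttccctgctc
Serpina7: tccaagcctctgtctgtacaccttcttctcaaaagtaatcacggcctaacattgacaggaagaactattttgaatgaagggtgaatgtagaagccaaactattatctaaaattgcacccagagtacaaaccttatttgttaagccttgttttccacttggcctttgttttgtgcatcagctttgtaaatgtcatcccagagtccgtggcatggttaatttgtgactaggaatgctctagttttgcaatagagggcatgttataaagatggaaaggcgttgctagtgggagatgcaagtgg

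AGGTCA was searched on both strands in the 9 windows of the 8 genes (Thra has 2 annotated starts). It was found once, in Slc16a10, 241 bases before the start, and 16.2% of all 33469 windows of 300 bases hold it. A direct repeat of AGGTCA spaced by 4 bases, the arrangement best known for thyroid hormone receptors, was in 0 of the 9 windows and in 0.00598% of all windows. A match is only a run of letters, and its absence says only that these letters are not in this window.

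Serpina7 encodes thyroxine-binding globulin, a plasma carrier of thyroid hormone. On the log2 scale its single probe set read 10.62, 8.66, 8.86, 9.35, 9.95 and 10.22 at 959 mg/kg, against 9.65, 11.04, 10.88, 10.52, 10.70 and 9.79 in vehicle. The groups overlapped: 3 of the 6 arrays at 959 mg/kg lay below every vehicle array and 3 lay within the vehicle range. The mean was 9.61 ± 0.778 at 959 mg/kg and 10.43 ± 0.578 in vehicle (SD, n = 6 each). This gave a log2 difference of -0.82 (SE 0.311, 95% interval -1.45 to -0.19, unadjusted p = 0.0126, limma adjusted p = 0.683), or a level 0.567 times that of vehicle with an interval of 0.366 to 0.878. The difference did not pass the adjustment. Leaving out single arrays moved it between -1.02 (without 959 mg/kg replicate 1) and -0.63 (without 959 mg/kg replicate 2).

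Serpina7 means lay below vehicle at every dose, but not in order of dose. The log2 differences were -0.22 at 0.1 mg/kg, -0.43 at 0.959 mg/kg, -0.15 at 9.59 mg/kg, -0.41 at 95.9 mg/kg and -0.82 at 959 mg/kg. Without replicate 6 of 0.1 mg/kg the difference at that dose was -0.09. Sorted by level, neighbouring groups were closer to each other than the within-group SD of 0.581. That SD is the spread of single arrays, so this does not test a trend. The line over dose rank had a slope of -0.13 per step (SE 0.0526, adjusted p = 0.453), which did not pass. That within-group SD was higher than for 99.4% of all probe sets, so Serpina7 was among the most variable transcripts between arrays of the same dose. In 6 measured hepatocyte markers, Ttr among them, the mean level ran from 13.75 to 13.82 at 959 mg/kg and from 13.78 to 13.87 in vehicle. In bulk tissue, fewer cells of a type and less RNA per cell cannot be told apart.

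Ttr encodes transthyretin, another hormone carrier made by the liver. Its probe set stayed between 14.48 and 14.60 on all 36 arrays. It averaged 14.54 ± 0.0131 at 959 mg/kg and 14.53 ± 0.0261 in vehicle (SD, n = 6 each), a log2 difference of 0.01 (95% interval -0.05 to 0.08, adjusted p = 0.98). Its within-group SD of 0.0235 was above that of only 0.0226% of all probe sets. Its mean lies close to the top of the scale, and whether signals this close to the top of the scale were compressed was not tested.

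**Figure D1:**
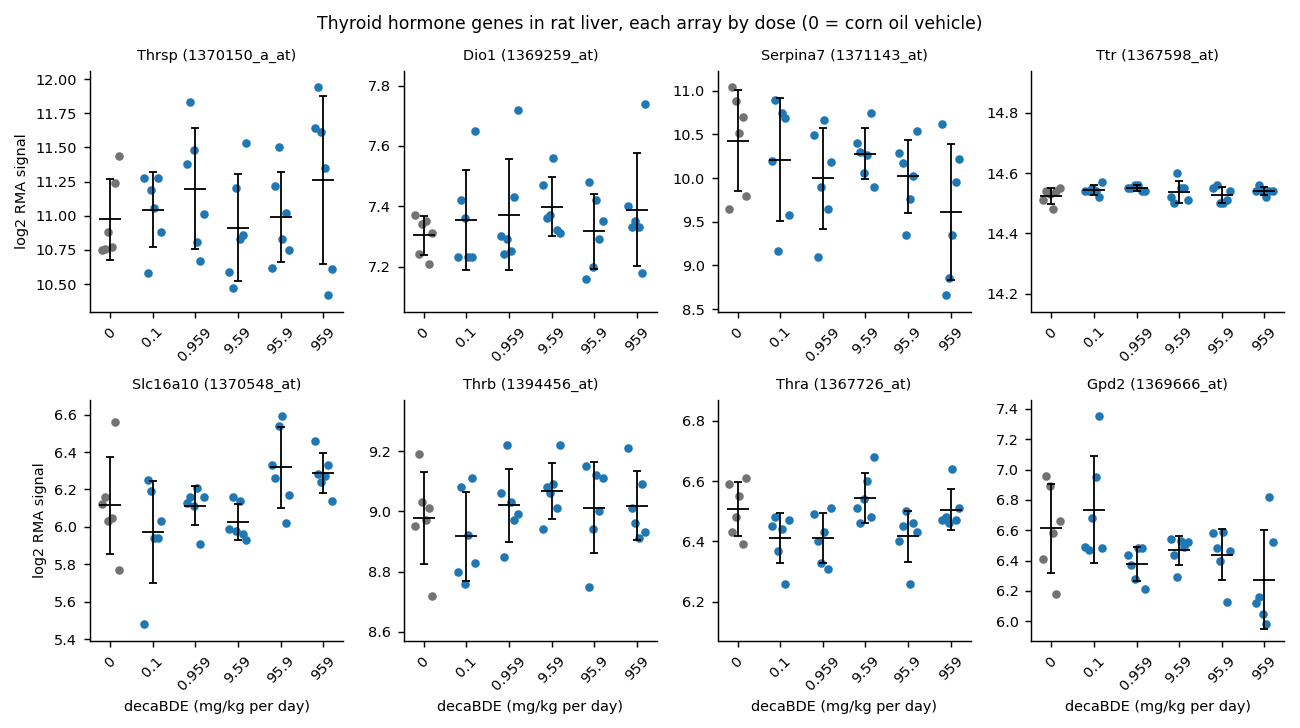
Log2 RMA signal (vertical axes, each with its own range) of the brightest probe set of each gene on the 36 arrays, by daily decaBDE dose in mg/kg (horizontal axes, 0 is vehicle, grey), with bars for the mean and SD of 6 arrays. Serpina7 and Gpd2 have their lowest means at 959 mg/kg (9.61 and 6.27) with points that overlap vehicle, and Ttr stays between 14.48 and 14.60.

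Slc16a10 encodes the monocarboxylate and aromatic amino acid transporter MCT10, which also carries thyroid hormone across cell membranes. In vehicle its arrays read 6.12, 6.16, 6.03, 6.05, 6.56 and 5.77 on the log2 scale. At 0.1 mg/kg they read 5.48, 6.25, 6.19, 5.94, 5.94 and 6.03, and at 0.959 mg/kg 6.13, 6.16, 6.11, 6.21, 5.91 and 6.16. None of these low-dose arrays lay above the vehicle range. At 9.59 mg/kg the values were 5.99, 6.16, 5.98, 6.14, 5.96 and 5.93. At 95.9 mg/kg they were 6.33, 6.26, 6.54, 6.59, 6.02 and 6.17, and at 959 mg/kg 6.46, 6.28, 6.24, 6.27, 6.33 and 6.14. The groups at 95.9 and 959 mg/kg had the highest means, yet only 1 of their 12 arrays exceeded the highest vehicle array.

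Group means of Slc16a10 were 6.32 ± 0.217 at 95.9 mg/kg and 6.29 ± 0.104 at 959 mg/kg, against 6.11 ± 0.256 in vehicle (SD, n = 6 each). The log2 differences from vehicle were 0.20 at 95.9 mg/kg (95% interval -0.01 to 0.42, adjusted p = 0.733) and 0.17 at 959 mg/kg (95% interval -0.04 to 0.39, adjusted p = 0.875). Vehicle arrays moved the difference at 959 mg/kg between 0.10 (without vehicle replicate 6) and 0.26 (without vehicle replicate 5). The line over dose rank was 0.05 per step (SE 0.0179, unadjusted p = 0.00632, adjusted p = 0.307), and the test for any dose had an adjusted p of 0.508. Neither passed, although Slc16a10 had the smallest unadjusted p for any dose (0.0123) among the 8 genes when each is read by its brightest probe set.

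Dio1 encodes the type 1 iodothyronine deiodinase, the selenoenzyme that activates and clears thyroid hormone in liver, and its transcript itself rises with the hormone. At 959 mg/kg the lowest, median and highest arrays read 7.18, 7.34 and 7.74, against 7.21, 7.33 and 7.37 in vehicle. The medians were nearly equal, and 2 of 6 arrays at 959 mg/kg lay above and 1 below the vehicle range. The mean log2 difference was 0.09 (SE 0.083, 95% interval -0.08 to 0.25, adjusted p = 0.931). Without 959 mg/kg replicate 6 it was 0.01. Over the 5 doses the differences ran from 0.01 at 95.9 mg/kg to 0.10 at 9.59 mg/kg. At 0.1 mg/kg the difference was 0.05, and -0.01 without replicate 6 of that group. Averaged over the 5 doses, Dio1 stood 0.06 above vehicle (95% interval -0.07 to 0.19, adjusted p = 0.927).

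Thrb encodes the thyroid hormone receptor that predominates in liver, and 4 probe sets read it. The brightest, 1394456_at, had means from 8.92 at 0.1 mg/kg to 9.07 at 9.59 mg/kg, with 8.98 ± 0.151 in vehicle (SD, n = 6). Its log2 difference at 959 mg/kg was 0.04 (95% interval -0.11 to 0.19, adjusted p = 0.975). Probe set 1370474_at varied far more, with a within-group SD of 0.528 beside 0.132 for 1394456_at. At 0.1 mg/kg the log2 difference of 1370474_at was 0.13, and 0.36 without replicate 6 of that group. Its lowest, median and highest arrays at 9.59 mg/kg were 4.64, 4.82 and 5.64, against 4.84, 5.41 and 5.96 in vehicle, and the ranges overlapped (log2 difference -0.38, adjusted p = 0.741). Probe set 1387983_at averaged 3.47 over all arrays, near the bottom of the scale, and differed from vehicle by 0.07 or less at every dose.

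At 0.1 mg/kg the Thrb probe set 1378457_at averaged 8.23 ± 0.389, against 8.48 ± 0.166 in vehicle (SD, n = 6 each), a log2 difference of -0.26 (adjusted p = 1). That mean rests on replicate 6, which read 7.47 while the next lowest array read 8.25, and without it the difference was -0.10. The same array was lowest for the Thra probe set 1370691_a_at, where the log2 difference from vehicle was -0.13 with it and -0.015 without it (Thra values, adjusted p = 1 both times). The 3′ minus 5′ signal of actin, a measure of RNA quality, averaged 1.24 ± 0.147 at 0.1 mg/kg and 1.16 ± 0.0505 in vehicle (SD, n = 6 each), and its part in these values was not tested.

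Thra encodes the other nuclear receptor for the hormone, and its 3 probe sets showed different patterns. Probe set 1367726_at had lower means at 0.1 mg/kg (6.41), 0.959 mg/kg (6.41) and 95.9 mg/kg (6.42) than in vehicle (6.51), but not at 9.59 mg/kg (6.54) or 959 mg/kg (6.50), and the test for any dose had an adjusted p of 0.65. Probe set 1370691_a_at differed from vehicle by -0.13 at 0.1 mg/kg and by 0.16 at 95.9 mg/kg. Thra shares the 3′ part of its locus with Nr1d1 on the opposite strand, and where these probes lie was not analysed here.

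The remaining Thra probe set, 1380518_s_at, had the smallest unadjusted p of the 16 for any dose (0.00861, adjusted p = 0.468). In vehicle its arrays read 2.48, 2.29, 2.29, 2.41, 2.38 and 2.34. At 0.1 mg/kg they read 2.39, 2.56, 2.37, 2.47, 2.53 and 2.73, and at 0.959 mg/kg 2.54, 2.37, 2.52, 2.58, 2.47 and 2.37. In each of these dose groups 3 of 6 arrays exceeded every vehicle array. The log2 difference at 0.1 mg/kg was 0.14, and 0.10 without replicate 6 of that group. At 9.59 mg/kg the values were 2.39, 2.28, 2.30, 2.40, 2.17 and 2.25, with 3 of 6 below the vehicle range. At 95.9 mg/kg they were 2.37, 2.13, 2.35, 2.35, 2.40 and 2.44, and at 959 mg/kg 2.38, 2.43, 2.58, 2.30, 2.41 and 2.40. All of this lies at the bottom of the array's scale, where only 0.142% of probe sets had a lower mean, and no detection calls were used, so a signal above background was not shown.

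Thrsp encodes a nuclear protein that promotes fatty acid synthesis and is induced by thyroid hormone in rat liver. Its 3 probe sets gave nearly the same pattern. For the brightest, 1370150_a_at, the lowest, median and highest arrays were 10.42, 11.48 and 11.94 at 959 mg/kg, against 10.75, 10.83 and 11.44 in vehicle. At that dose 3 of 6 arrays exceeded the vehicle range and 2 lay below it. The mean was 11.26 ± 0.61 at 959 mg/kg and 10.97 ± 0.294 in vehicle (SD, n = 6 each), a log2 difference of 0.29 (SE 0.219, 95% interval -0.16 to 0.73, adjusted p = 0.906). It was 0.15 without 959 mg/kg replicate 2 and 0.46 without 959 mg/kg replicate 5. The other probe sets gave 0.24 (1371400_at) and 0.29 (1387852_at) at that dose, neither of which passed. Across the doses the differences of 1370150_a_at ran from -0.06 at 9.59 mg/kg to 0.29 at 959 mg/kg.

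Gpd2 encodes the mitochondrial glycerol-3-phosphate dehydrogenase, which feeds cytosolic reducing power into the respiratory chain. Probe set 1369666_at read 6.12, 6.16, 6.05, 5.98, 6.82 and 6.52 at 959 mg/kg, against 6.41, 6.96, 6.89, 6.58, 6.18 and 6.66 in vehicle. Probe set 1387670_at read 5.51, 5.67, 5.48, 5.53, 6.34 and 5.81 at 959 mg/kg, against 5.78, 6.61, 6.28, 6.13, 5.95 and 6.10 in vehicle. For each probe set 4 of 6 arrays at 959 mg/kg lay below every vehicle array, and replicate 5 was the highest of the dose group on both. The means were 6.27 ± 0.325 at 959 mg/kg and 6.61 ± 0.292 in vehicle for 1369666_at, and 5.72 ± 0.327 and 6.14 ± 0.286, in the same order, for 1387670_at (SD, n = 6 each).

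These values gave log2 differences of -0.34 (SE 0.135, 95% interval -0.61 to -0.06, unadjusted p = 0.0174) and -0.42 (SE 0.167, 95% interval -0.76 to -0.08, unadjusted p = 0.0172), each with an adjusted p of 0.725. In linear terms Gpd2 stood at 0.792 and 0.749 times the vehicle level. Means of 1369666_at were 6.61 in vehicle, 6.74 at 0.1 mg/kg and 6.38 at 0.959 mg/kg. They were 6.47 at 9.59 mg/kg, 6.44 at 95.9 mg/kg and 6.27 at 959 mg/kg. Neighbours in the order of level were closer than the within-group SD of 0.247. That SD is the spread of single arrays, so this does not test a trend. The lines over dose rank were -0.07 per step (SE 0.0228, unadjusted p = 0.00371, adjusted p = 0.252) and -0.08 per step (SE 0.0282, unadjusted p = 0.00661, adjusted p = 0.307). Without 959 mg/kg replicate 5 the adjusted p of the line for Gpd2 probe set 1369666_at was 0.0742, the smallest in any alternative, and still above the threshold.

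**Figure D2:**
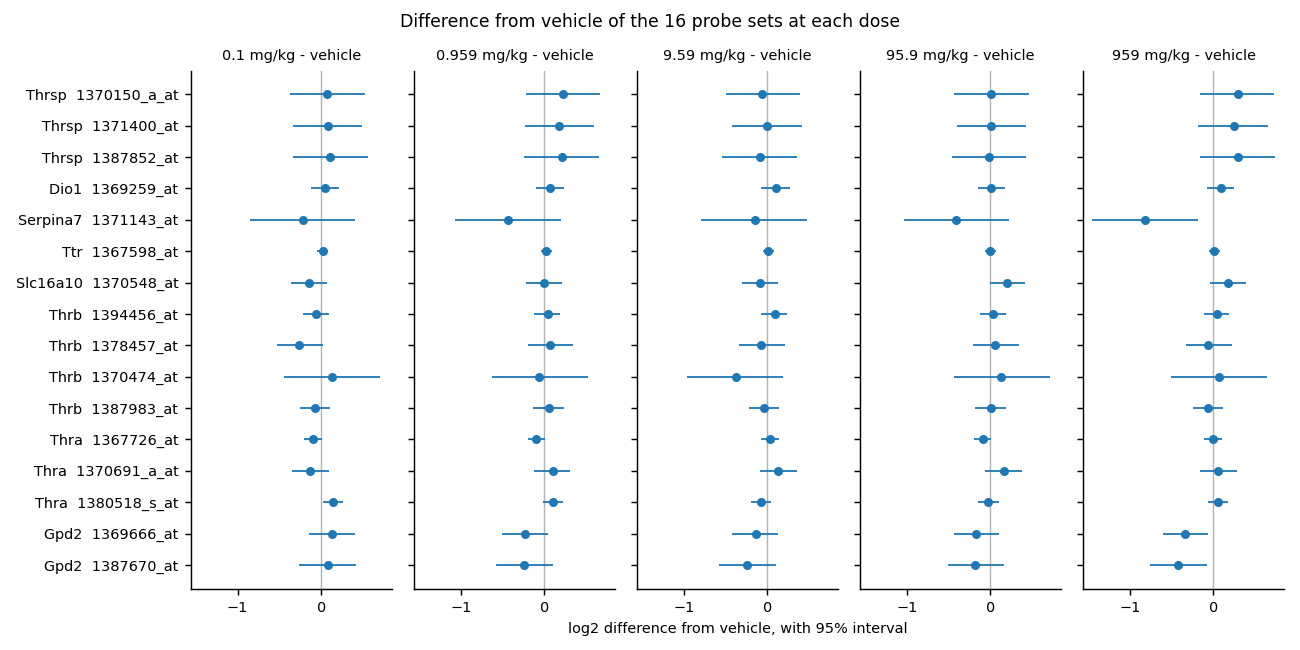
Log2 difference from vehicle (horizontal axes) with 95% intervals for the 16 probe sets (rows) at the 5 doses (panels, low to high). At 959 mg/kg the intervals of Serpina7 (-1.45 to -0.19) and both Gpd2 probe sets (-0.61 to -0.06 and -0.76 to -0.08) leave out 0. At 0.1 mg/kg the interval of the dim Thra probe set 1380518_s_at (0.02 to 0.26) does so too. None of these passed the adjustment over all probe sets.

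The intervals are not adjusted for the number of probe sets, so differences larger than their half-widths could also have been missed. At a single dose the 95% half-width ran from 0.06 (Ttr, near the top of the scale) to 0.63 (Serpina7) on the log2 scale. Differences within these widths could not be told from 0 even before adjustment. Serpina7 at 959 mg/kg lay beyond its half-width, at -0.82, and still had a limma adjusted p of 0.683. Of the 16 probe sets, 12 varied within groups by more than the median probe set (SD 0.141).

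Within dose groups, probe sets of the same gene were compared over 36 arrays after centring on the group means (permutation within groups, 100000 resamples, adjusted over 13 pairs). For Thrsp, Pearson's r was 0.985 to 0.991 and Spearman's rho 0.976 to 0.987 (adjusted p = 3.25e-05 for each pair, with raw p at 1e-05, the smallest the resamples can give). For Gpd2, r was 0.807 and rho 0.792 (adjusted p = 3.25e-05 each), and r was 0.703 without the 2 arrays farthest from the median. The bright Thrb probe sets 1394456_at and 1378457_at had r 0.643 and rho 0.693 (adjusted p = 5.2e-05 and 7.8e-05). Of the other 5 Thrb pairs, 1394456_at with 1370474_at passed by both measures (r 0.461, rho 0.461, adjusted p = 0.023 and 0.0244). The pair of 1378457_at and 1370474_at passed by r (0.488, adjusted p = 0.0228) but not by rho (0.323, adjusted p = 0.117), with r 0.345 without 0.1 mg/kg replicate 6. The 3 pairs with the dim 1387983_at did not pass (r 0.172 to 0.24). Among the 3 Thra probe sets r ran from -0.316 to 0.000149 and no pair passed by r or rho, so no variation shared by these probe sets was detectable. Without 0.1 mg/kg replicate 6 these r ran from -0.279 to -0.0656, and the pair at -0.316 (1370691_a_at with 1380518_s_at) stood at -0.117.

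Between different genes, 0 of 28 pairs passed by Pearson's r or by Spearman's rho after adjustment over the 28. The strongest positive relation joined Serpina7 and Thrb (r 0.50, rho 0.499, raw permutation p = 0.005 and 0.00563, adjusted p = 0.14 and 0.158), with r 0.485 without the 2 arrays farthest from the median of Serpina7. The strongest negative one joined Thrsp and Serpina7 (r -0.447, rho -0.45, raw permutation p = 0.0185 and 0.014, adjusted p = 0.26 and 0.195), with r -0.382 without 2 arrays. The hormone-induced Thrsp and Gpd2 had r -0.319 and rho -0.341 (adjusted permutation p = 0.457 and 0.387), so no positive relation between them was found. Thrsp and Dio1 had r -0.293 and rho -0.315 (adjusted permutation p = 0.461 and 0.387).

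**Figure D3:**
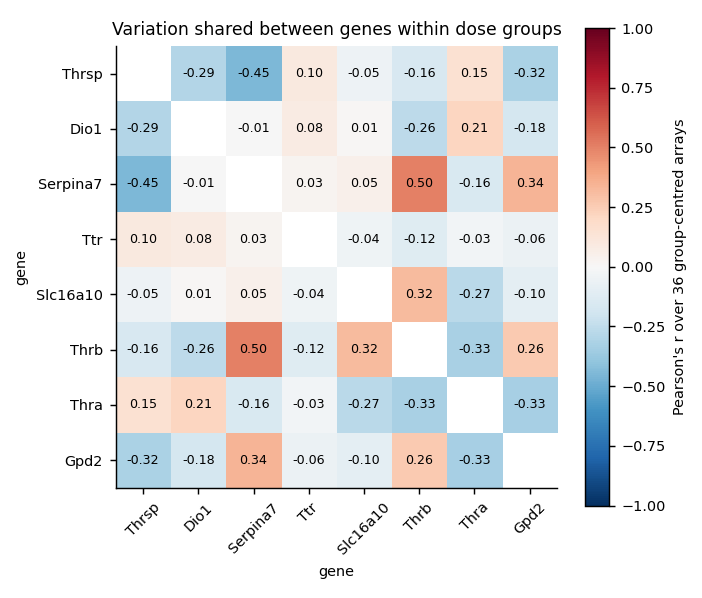
Pearson's r (colour and number) between the brightest probe sets of the 8 genes (both axes) over 36 arrays centred on group means. The values run from -0.45 (Thrsp with Serpina7) to 0.50 (Serpina7 with Thrb), and 0 of 28 pairs passed the adjusted threshold.

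Among the 14216 other genes with a named probe set, those whose within-group pattern was most like Gpd2 were Hsd17b2 (r 0.756, rho 0.737), Macf1 (r 0.687, rho 0.615) and Nr1d2 (r 0.669, rho 0.655). For Slc16a10 they were Fbxl14 (r 0.584, rho 0.422), Cd7 (r 0.572, rho 0.606) and Bloc1s2 (r 0.567, rho 0.576). These are the highest of many correlations over the same 36 arrays and serve as a description only.

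The wider pathway was read through 55 measured genes in 6 lists, each gene by its brightest probe set. Ugt2b1, a glucuronosyltransferase gene, was the only one to pass in any comparison. No other glucuronosyltransferase gene was measured in these lists, so the rest of that family was not read here. The lists were written with earlier results of these data known, so Ugt2b1 is described here and is not an independent find. Whether it bears on clearance of the hormone was not tested. The values of Ugt2b1 follow. It rose at 0.959 mg/kg and above, and its lowest, median and highest arrays were 12.83, 13.36 and 13.45 at 959 mg/kg, against 11.96, 12.33 and 12.79 in vehicle. All 6 arrays lay above every vehicle array at 9.59, 95.9 and 959 mg/kg, 5 did at 0.959 mg/kg and 1 at 0.1 mg/kg. The log2 difference at 959 mg/kg was 0.90 (SE 0.118, adjusted p = 1.94e-05). Of the other 6 measured conjugation and hydrolysis genes, sulfotransferases, sulfatases and the like, 0 passed in either direction.

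Membrane transporters of the hormone (8 measured) had 0 calls in either direction, with a median log2 difference at 959 mg/kg of -0.0196. Slco1a1, an organic anion uptake transporter, had -0.01 at 959 mg/kg and Slc17a4, a phosphate transporter family member that moves thyroid hormone, had -0.15 (adjusted p = 0.991 and 0.864). Carriers and cytosolic binding proteins (3 measured) had 0 calls and a median of 0.00103, with Crym, the cytosolic binder of triiodothyronine, at -0.01 and Apob at 0.00. Deiodination and selenoprotein supply (8 measured) had 0 calls and a median of -0.00631, with Eefsec, the selenocysteine elongation factor, at 0.00 and Txnrd1, a thioredoxin reductase, at 0.11. The median over all probe sets was -0.00105, so these lists sat close to the whole array. At most 0.393% of all probe sets were called in any comparison, so 0 calls do not set a list apart.

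Receptor partners and coregulators (12 measured) also had 0 calls, with a median at 959 mg/kg of -0.0331. Rxrg, a retinoid X receptor that pairs with thyroid hormone receptors, had a log2 difference of -0.28 (unadjusted p = 0.00703, adjusted p = 0.599), and Nr1h4, the bile acid receptor, -0.22 (adjusted p = 0.782). Hepatic genes known to respond to the hormone (17 measured) had 0 calls and a median of -0.0876, with 6 of 17 positive. Among them Bcl3, a transcriptional cofactor, had 0.17 and Mlxipl, a carbohydrate-sensing factor of lipogenesis, -0.12 (adjusted p = 0.906 and 0.899). Fgf21, a hormone of the fasted liver singled out after its value was seen, had the most negative difference of the list at -1.20, with an SE of 0.691 (adjusted p = 0.865). The hepatic genes were not sorted by whether the hormone raises or lowers them, so their median gives no direction of hormone response. At the other doses the median of this list ran from -0.0842 to -0.00248.

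**Figure D4:**
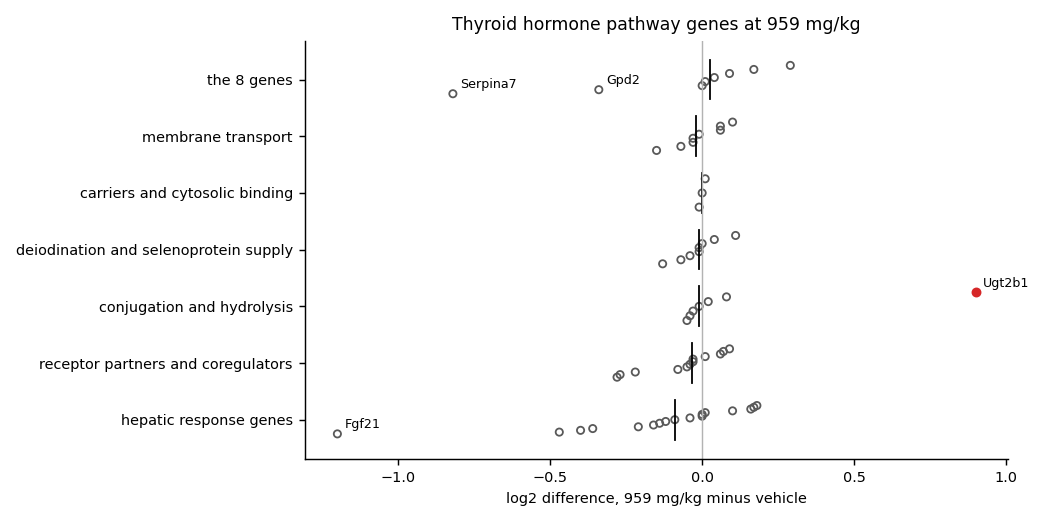
Log2 difference of 959 mg/kg minus vehicle (horizontal axis) for the 8 genes and the 6 pathway lists (rows), each point a gene by its brightest probe set, with a bar at the list median. The filled red point is Ugt2b1 (0.90), the only gene past the adjusted threshold, and open points did not pass. The lists were written with earlier results of these data known.

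The tissue label fitted the hepatocyte markers, with Alb at a mean of 14.98, Serpina1 at 14.38 and Hnf4a at 11.86, while the thyroid follicle markers Tg and Slc5a5 averaged 4.03 and 3.49. Pax8, the brightest of 4 measured thyroid markers, averaged 5.47. None of the 36 measured cell type markers passed at any dose, beside 0% to 0.116% of all probe sets at the single doses. With so few calls, this does not show that the cell mix was unchanged. Array medians ran from 5.13 to 5.21. The log2 level of macrophage markers (5 of 6 measured) differed from vehicle by -0.442, -0.463, -0.303, -0.163 and -0.212 from the lowest to the highest dose, and that of lymphocyte markers (4 of 5) by -0.177, -0.264, -0.239, -0.169 and -0.079. Endothelium markers (5 measured) differed by -0.13, -0.189, -0.143, -0.00109 and -0.0876 in the same order. Stellate cell and fibroblast markers (5 measured) differed by 0.0916, 0.0213, 0.115, 0.281 and 0.0134. Every array at 0.959 mg/kg lay below the vehicle range for endothelium markers (8.32 to 8.42 against 8.45 to 8.71). The same was true there of lymphocyte markers (5.21 to 5.42 against 5.46 to 5.70). How often other gene lists do this was not analysed. At 959 mg/kg macrophage markers ranged from 7.57 to 8.33, against 7.53 to 8.58 in vehicle. At that dose cholangiocyte markers (3 of 4) differed by 0.398, with a range of 5.86 to 6.91 against 5.75 to 6.41 in vehicle. The 3′ minus 5′ signal of actin was 1.14 ± 0.0725 at 959 mg/kg and 1.16 ± 0.0505 in vehicle (SD, n = 6 each). The part of these shifts in the values of the 8 genes was not tested.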

How the data were processed

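Liver RNA was hybridised to 36 Affymetrix 3′ expression arrays, 1 per sample. The authors deposited log2 signals, 1 per probe set, made by robust multi-array averaging (RMA) with the affy package, per the submitters' processing notes; the package version and a genome build are not given in the sources used here. RMA quantile-normalizes all arrays to 1 distribution and can understate differences at the ends of the scale. Titles gave each sample's group and replicate number. The 57 Affymetrix control probe sets among 31099 were dropped. All 8 genes matched the platform annotation and the RefSeq promoter table.

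For the remaining 31042, group means were estimated in limma 3.58.1 under R 4.3.3 by lmFit with eBayes; the residual degrees of freedom were 30 and the prior ones 5.12. Tests were two-sided, with Benjamini-Hochberg adjustment over all probe sets within each comparison and a threshold of 0.05. The series' design text names maanova at a false discovery rate of 5%; limma stood in for it. Within-group correlations used Python 3.11.15 and numpy 2.4.6. The fit was also run on simulated data, drawn independently for each probe set and array, to check the code. That run does not show which differences could be called in these arrays.

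The 8 genes and the lists were chosen with earlier results of these data known. All member probe sets are given; every array is listed for the 2 with the smallest p over any dose, and, beyond this rule, for Serpina7 and Gpd2 at 959 mg/kg and in vehicle. Listed genes are named if they passed, and otherwise the 2 of smallest p over any dose in each list. The brightest probe set of a gene is the one with the highest mean. Same-numbered arrays of different groups did not vary together (median correlation -0.0344 over 90 pairs, 12 above 0.1), so the number was not used as a pairing. Of the 63 listed pathway genes 55 were measured by a probe set with 1 symbol; the others are not analysed here.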

Additional observations from a re-analysis of the deposited data

Results flagged for a closer look

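A value was singled out where its gap to the nearest array of the same group of 6, divided by the group's range, exceeded Dixon's 95% critical value. Of 96 groups of a probe set and a dose, 7 held such an array, and chance alone marks about 1 in 20. Replicate 6 at 0.1 mg/kg was far below the other arrays of its group for the Thrb probe set 1378457_at (7.47, next 8.25) and for the Thra probe set 1370691_a_at (4.84, next 5.43). The same Thrb probe set had a low array at 959 mg/kg, replicate 6 (7.87, next 8.43), and a high one at 0.959 mg/kg, replicate 3 (8.82, next 8.56). Slc16a10 had a low array at 0.959 mg/kg, replicate 5 (5.91, next 6.11). The Thra probe set 1367726_at had a high array at 959 mg/kg, replicate 4 (6.64, next 6.51), and the dim Thra probe set 1380518_s_at a low one at 95.9 mg/kg, replicate 2 (2.13, next 2.35).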

How the results depend on the processing

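The count of called member probe sets was 0 in every comparison under every alternative run: subtraction of array medians, another quantile normalization, restriction to bright probe sets or to 1 probe set a gene, a fit without moderation of the variance, a robust fit with a trend on intensity, weighted arrays, a fit of the compared groups alone, a linear dose scale for the line, and each of 36 arrays left out (0 to 0 calls). With the replicate number as a block (replicate block) the counts were also 0, although the labels do not say that the number pairs samples, and 4 of 36 arrays resembled their own number most. The smallest adjusted p in any of these fits was 0.0742, for Gpd2 over dose rank without 959 mg/kg replicate 5. Of 112 member differences, 36 changed sign in at least 1 alternative, and each of those was 0.092 or smaller in size as reported. Leaving out 0.1 mg/kg replicate 6 left 0 of 28 gene pairs past the threshold. No detection calls were used, so whether the dim probe sets of Thra and Thrb were above background was not tested.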
